A study of Mus musculus with 4 samples.

Results

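Long-term hematopoietic stem cells (LT-HSCs) differed in the share of their open chromatin that lay at promoters, and the cells at both ends of this range were described here. For each cell of a single-cell ATAC-seq table, a promoter score was computed as the percentage of its counts in promoter peaks, which are peaks overlapping the 1000 bp on either side of the start of a GENCODE protein-coding transcript of GRCm38. Within each of the 2 barcode sets of the table, the cells were grouped by this score, and the 20% with the highest score (promoter-rich) were compared with the 20% with the lowest (promoter-poor). Of 1454 cells, 1309 reached the minimum depth of 4899 counts, 749 in set 1 and 560 in set 2. The groups held 149 promoter-rich and 149 promoter-poor cells of set 1 and 112 of each in set 2, together 522 cells.

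The labels assign the table to LT-HSCs of C57BL/6JRj mice aged 22 to 28 months that had been sorted with an antibody into CLCA3A1high and CLCA3A1low cells. Each of the 2 samples pooled 2500 cells of each of 4 mice. No label pairs a barcode set with a sample, and the sets shared 0 barcode sequences, so the sets served as a pair of separate collections of cells with no group name. The young (3 to 4 months) and old (22 to 28 months) LT-HSCs of the series were not used here, because their table carries no peak names. Cells are not replicates and the animals of a pool cannot be told apart, so no test was made. A difference was read only from its size, its counting interval and whether both sets showed it.

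ATAC-seq counts the places where the Tn5 transposase cuts accessible DNA. Promoters, the regions around gene starts, are often rich in CpG dinucleotides and open in most cell types. Distal elements such as enhancers are more specific to a cell type and are bound in blood stem cells by factors such as PU.1, RUNX1, GATA2 and ERG, while the insulator protein CTCF holds many sites that are shared between tissues. The share of cuts at promoters is also commonly read as a measure of library quality in this assay.

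The table held 16802 promoter peaks and 76711 other peaks, called non-promoter peaks below, and promoter peaks made up 17.97% of peaks and 53.7% of counts. In set 1 the lowest score was 43.7%, the median 53.2% and the highest 68.2%, with an SD of 3.29. Set 2 had a lowest score of 42.9%, a median of 52.8% and a highest of 71.8%, with an SD of 4.48. Counting error alone corresponds to an SD of 0.631 in set 1 and 0.623 in set 2. The median score was 57.4% in the promoter-rich and 49.7% in the promoter-poor group of set 1, and 57.8% and 49.1% in set 2. No gap separated the groups from their neighbors. In set 1 the last promoter-rich cell scored 56.08% and the next cell 56.06%, and the last promoter-poor cell scored 50.97% and the next 50.98%. The corresponding values of set 2 were 55.46% and 55.43% at the top and 50.46% and 50.47% at the bottom.

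**Figure D1:**
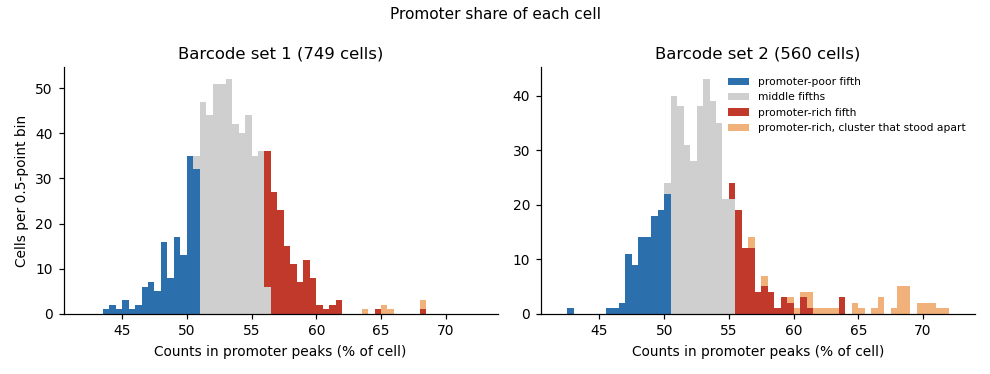
Number of cells (vertical axis) by promoter share of counts in percent (horizontal axis) for both barcode sets, with promoter-poor cells in blue, cells between the groups in gray and promoter-rich cells in red. The score has no gap at the limits of the groups, and the upper tail of set 2 is made mostly of cells of a cluster that stood apart (orange).

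The score was shared by different chromosomes of a cell. When the groups were chosen on odd-numbered chromosomes alone, the median promoter share on even-numbered chromosomes was 55.5% in the promoter-rich and 48.0% in the promoter-poor cells of set 1. The values of set 2 were 56.3% and 47.4%. Across cells, the shares of the odd and even chromosomes had a Spearman's rho of 0.87 over 749 cells of set 1 and 0.89 over 560 cells of set 2. Both shares come from the same library of each cell.

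One group of cells had a lower share of counts at most stem cell marker loci. Clustering on non-promoter peaks alone set apart 48 cells with a median score of 66.6%, of which 6 belonged to set 1 and 42 to set 2. They made up 6 of the 149 promoter-rich cells of set 1 (4.03%) and 40 of the 112 promoter-rich cells of set 2 (35.7%), and 0 of the promoter-poor cells of either set. In counts per 1000000 counts of all peaks (CPM) over gene bodies and the 5000 bp upstream, the loci of the LT-HSC marker list summed to 889 CPM in these cells and 2037 CPM in the others, and 1 of 19 loci with a peak was higher. Mecom, a stem cell transcription factor, had 54.8 against 382 CPM and Meis1 had 107 against 312. Cavin2, a gene of the aged HSC list, had 0 counts in the cluster and 77.4 CPM in the other cells. Among loci with at least 50 counts in the cluster, those with the highest fold were Sh2d2a (51.1 against 2.43 CPM), Slc6a16 (106 against 11.8), Cisd3 (86.0 against 13.9) and Ccl5, a chemokine of lymphocytes (68.1 against 11.7). Nkg7, a granule gene of the T and NK cell list, had 39 counts in the cluster, under that minimum, at 36.9 against 2.85 CPM. Its log2 ratio of 3.30 lay between those of Sh2d2a (3.92) and Slc6a16 (3.06). The T and NK cell list as a whole summed to 454 against 373 CPM (log2 ratio 0.28), with 5 of 8 loci higher. The log2 ratio was larger for the housekeeping (0.58), interferon (0.54), immediate early (0.48) and cell cycle (0.38) lists in these cells. All these locus sums hold promoter and non-promoter peaks together, and the cluster had a higher promoter share. Loci with mostly promoter counts are raised by that share alone, and loci with mostly non-promoter counts are lowered. The size of this part was not tested. The cluster was given no name. Since it holds a large share of the promoter-rich cells of set 2, the main results are also given without these 48 cells, with the groups taken anew from the remaining cells (148 cells per group in set 1 and 103 in set 2).

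Promoter-rich cells of set 1 had more counts. The median promoter-rich cell of set 1 had 15495 counts (95% interval of the median 13831 to 17231) and the median promoter-poor cell 12369 (11286 to 13709). In set 2 the medians were 15805.5 (14279 to 18745) and 14401.5 (11591 to 17320), and these intervals overlapped. Without the cluster, the order in set 2 turned, with 14068 counts in promoter-rich and 14384 in promoter-poor cells. Across all cells kept, score and depth had a Spearman's rho of 0.12 in set 1 and 0.017 in set 2. How the counts of a cell split between promoter and non-promoter peaks follows from its score and depth. In set 1 the median number of promoter counts was 9122 in promoter-rich against 5925 in promoter-poor cells. The median number of non-promoter counts was 6366 against 6313. In set 2 the promoter counts were 9528.5 against 6957 and the non-promoter counts 6396 against 7446.5.

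At equal depth, the groups did not differ detectably in the number of peaks with a count. After each cell was thinned to 4899 counts, the median promoter-rich cell of set 1 had counts in 3636 peaks (3530 to 3689) and the promoter-poor cell in 3538 (3439 to 3641). In set 2 the medians were 3626.5 (3518 to 3697) and 3629 (3486 to 3770). In groups matched for depth before thinning, the promoter-rich median was lower in both sets, with differences of -76 and -120.5 peaks. The makeup of these peaks is fixed by the score itself. In set 1, promoter-rich cells had counts in 2027 promoter and 1590 non-promoter peaks, and promoter-poor cells in 1678 and 1857. The number of different promoters was also compared at the same number of promoter counts. The median promoter-rich cell had more promoter counts before thinning, as given above, and was thinned further. Because cut sites come in pairs, thinning further can by itself leave counts in more peaks. This number is therefore not independent of the score, and the size of that part was not tested. With 2403 promoter counts per cell, promoter-rich cells of set 1 covered 1799 promoter peaks (1753 to 1839) and promoter-poor cells 1673 (1621 to 1709). In set 2 these numbers were 1799.5 (1763 to 1846) and 1700.5 (1645 to 1778). The median was thus higher in promoter-rich cells in both sets, although the intervals of set 2 overlapped. With 1889 non-promoter counts per cell, the numbers of non-promoter peaks were 1508 and 1512 in set 1 and 1501.5 and 1552.5 in set 2.

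**Figure D2:**
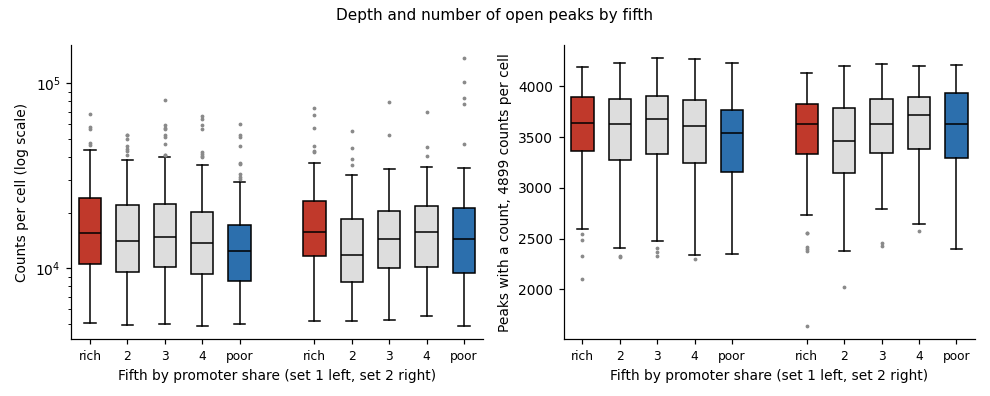
Counts per cell on a log scale (left) and peaks with a count after thinning to 4899 counts (right) for 5 equal groups of cells by score in each barcode set, with boxes from the lower to the upper quartile, whiskers to 1.5 times the box and points beyond. The median of promoter-rich cells (red) lies above that of promoter-poor cells (blue) for counts in set 1, whereas the boxes for peaks at equal depth overlap in both sets.

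Both results depended on how counts were read. With a peak counted a single time in a cell however many counts it had, and the cells scored again, the promoter-rich group had fewer open peaks than the promoter-poor group, with a ratio of medians of 0.516 in set 1 and 0.545 in set 2. At equal depth the difference in peaks was then -558 in set 1 and -564.5 in set 2.

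The composition of the non-promoter counts also differed, which the score does not fix. The clearest feature was CTCF. Peaks holding the CTCF consensus made up 6.62% of non-promoter peaks. They held 9.28% of the non-promoter counts of the promoter-rich group and 7.41% of those of the promoter-poor group in set 1, a log2 ratio of 0.32 (95% counting interval 0.31 to 0.34). In set 2 the shares were 8.83% and 7.15%, a log2 ratio of 0.30 (0.29 to 0.32). With the cells of set 1 in 5 groups from the highest to the lowest score, the share was 9.28%, 8.36%, 8.19%, 7.82% and 7.41%, lower at each step. In set 2 it was 8.83%, 7.65%, 7.44%, 6.99% and 7.15%, with the lowest value beside the promoter-poor group. By cell, the lowest, median and highest CTCF shares of set 1 were 6.22%, 8.83% and 12.4% in promoter-rich cells and 5.004%, 7.04% and 9.36% in promoter-poor cells. The same values of set 2 were 6.501%, 8.32% and 12.01%, against 4.73%, 6.70% and 9.75%. The ranges overlapped, but 4 of 149 promoter-rich cells of set 1 and 4 of 112 of set 2 lay below the median of the promoter-poor cells.

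The CTCF difference had the same direction in all strata examined, with 1 interval that included 0. Without the cluster that stood apart the log2 ratios were 0.33 and 0.22, and in groups matched for depth they were 0.26 and 0.31. Over peaks more than 5000 bp from any protein-coding start they were 0.33 and 0.30. Among peaks inside protein-coding genes they were 0.33 and 0.30, and among intergenic peaks 0.31 and 0.30. Within the 20% of non-promoter peaks with the least CpG they were 0.51 and 0.49, and within the CpG-richest 20% they were 0.17 and 0.14. By level in the cells not compared, the ratios of the 20% of peaks with the fewest counts were 0.88 and 0.11, the latter with an interval of -0.13 to 0.34, and those of the 20% with the most counts were 0.28 and 0.25. With each peak counted once per cell and the cells scored again, the ratio of set 1 was 0.05 while that of set 2 was 0.23. The groups of that alternative differed in depth as described above, and the part of depth in this change was not tested.

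**Figure D3:**
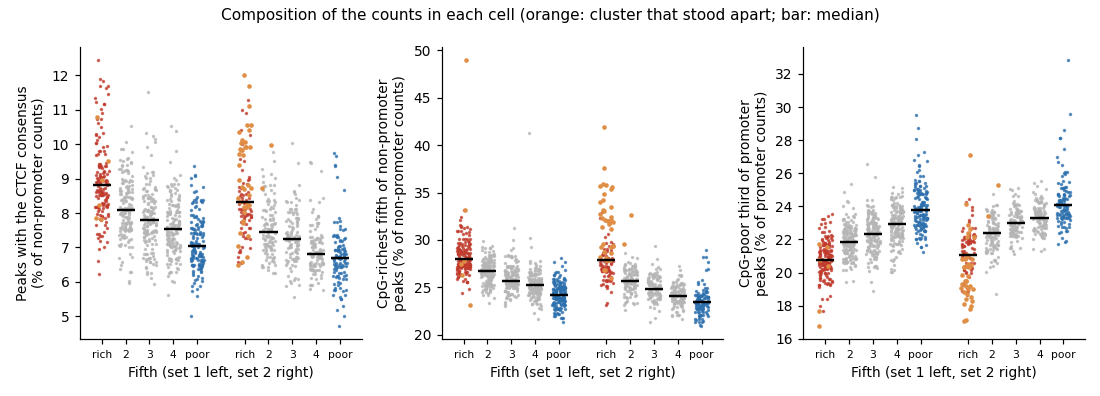
Share of counts (percent, vertical axes) in each cell for 5 equal groups of cells by score in both barcode sets: peaks with the CTCF consensus and CpG-richest peaks among non-promoter counts, and CpG-poor promoters among promoter counts. The median (bar) of the CTCF share is 8.83% in promoter-rich and 7.04% in promoter-poor cells of set 1, the middle panel has the same order and the right panel the opposite order.

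CpG content was the second feature. The CpG-richest 20% of non-promoter peaks (over 2.01 CpG per 100 bp) held 28.5% of the non-promoter counts of promoter-rich and 24.6% of those of promoter-poor cells in set 1, a log2 ratio of 0.22. In set 2 it held 29.4% and 24.2%, a log2 ratio of 0.28. The 20% with the least CpG (at most 0.556 per 100 bp) went the other way, with log2 ratios of -0.15 and -0.22. With the cluster left out, the ratios of the CpG-richest peaks were 0.22 and 0.16 and those of the CpG-poorest peaks -0.14 and -0.11. Some non-promoter peaks lie at the start of another transcript, such as a noncoding RNA, and these peaks were higher too. They held 15.3% against 13.6% in set 1 and 15.9% against 13.6% in set 2. When they were left out, the CpG-richest peaks still had log2 ratios of 0.20 and 0.25. The same direction held inside promoters. The 5601 promoter peaks with the least CpG had 20.6% of the promoter counts of promoter-rich and 23.9% of those of promoter-poor cells in set 1, and 20.6% and 24.8% in set 2, while the 5601 promoter peaks with the most CpG had 37.5% against 35.3% and 37.4% against 34.6%.

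Commonly open peaks held a larger share of the pooled counts and rare peaks a smaller one in promoter-rich than in promoter-poor cells. The 20% of non-promoter peaks with the most counts in the cells not compared held 63.0% against 61.1% of non-promoter counts in set 1 and 61.8% against 58.5% in set 2. The 20% with the fewest held 1.27% against 1.66% in set 1 (log2 ratio -0.38) and 2.17% against 2.40% in set 2 (-0.14). Without the cluster these ratios were -0.43 and -1.08. The promoter-rich groups taken anew then included cells in which the level had been measured, which lowers their share of these peaks. The order of the rare peaks over the groups by score cannot be read. The groups in between are the cells in which these peaks were chosen for having the fewest counts. In set 1 the share of the rare peaks was 1.27%, 0.920%, 1.03%, 1.02% and 1.66% from the highest to the lowest score. In set 2 it was 2.17%, 1.02%, 1.16%, 1.22% and 2.40%, and with the cluster left out the first of these was 1.15%. The medians over cells were closer than the pooled shares, at 1.17% against 1.25% in set 1 and 1.42% against 1.56% in set 2, and single promoter-poor cells of set 1 reached 5.91%. Promoters followed the same order, with log2 ratios of -0.39 and -0.54 for the 5607 promoter peaks with the fewest counts. Distance to the nearest start gave no stable order. Peaks over 100 kb away had log2 ratios of -0.09 and -0.17, but without the cluster the ratio of set 2 was 0.01, and the ratios of the other distance classes of set 2 changed sign as well.

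Of the other consensus words, those that contain CpG were higher in promoter-rich cells. The GC box GGGGCGGG, bound by SP and KLF factors, lay in 5.17% of non-promoter peaks, which held 14.5% against 12.2% of counts in set 1 and 15.1% against 12.2% in set 2 (log2 ratios 0.24 and 0.31). Its reversed word, read backwards without complementing and nearly the same letters, gave 0.25 and 0.32. The cAMP response element TGACGTCA gave 0.18 and 0.30, and its reversed word -0.02 and 0.01. The ETS word CCGGAAGT gave 0.11 and 0.26, against 0.04 and 0.06 for its reversed word.

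The words of the blood factors had pooled ratios near 0, some of them in the opposite direction to their reversed word. The PU.1 word GAGGAAGT had log2 ratios of -0.04 and -0.04, against 0.03 and 0.06 for its reversed word. The RUNX word TGTGGTT had -0.03 and -0.03, against 0.05 and 0.06 reversed. The GATA word AGATAAG had -0.01 and -0.02 (0.03 in set 2 without the cluster), the AP-1 word TGANTCA -0.01 and 0.03, and the TEAD word ACATTCCA 0.04 and 0.05, against 0.05 and 0.07 reversed. By cell, where each cell weighs the same, the PU.1 share had a median of 16.6% in promoter-rich and 17.3% in promoter-poor cells of set 1 and 17.9% and 19.2% in set 2. In set 2, 90 of 112 promoter-rich cells lay below the median of the promoter-poor cells. The RUNX share had medians of 30.9% and 31.9% in set 1 and 31.4% and 33.0% in set 2. Leaving out the cluster gave pooled PU.1 ratios of -0.05 and -0.08 and pooled RUNX ratios of -0.04 and -0.07. These words were searched on both strands. Peaks may hold several words, and a match is not proof of binding. With each peak counted once per cell and the cells scored again, the PU.1 ratio of set 1 was 0.08 and the RUNX ratios were 0.04 and 0.01.

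**Figure D4:**
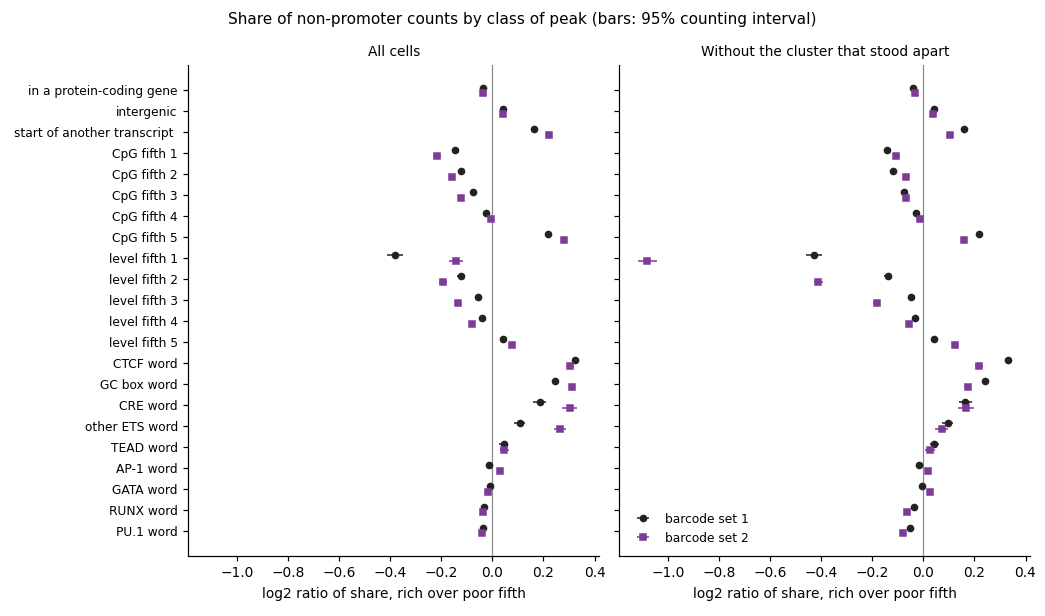
Log2 ratio of the share of non-promoter counts, promoter-rich over promoter-poor cells (horizontal axis), for classes of peaks and for peaks with each word, in set 1 (circles) and set 2 (squares), with 95% counting intervals. CTCF (0.32 and 0.30), GC box and CpG-rich peaks lie to the right and CpG-poor and rare peaks to the left, with and without the cluster that stood apart.

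Single peaks were compared next, as counts per 1000000 non-promoter counts of each group with a pseudocount of 1, among 23325 non-promoter peaks with at least 20 counts in the compared cells of each set. A peak was called when it was past 1.5-fold in the same direction in both sets. Promoter-rich cells were higher at 1539 peaks (6.6%) and lower at 1932 (8.28%). Another 1493 peaks were past 1.5-fold in opposite directions, a count that takes both orders of the sets together. Ratios of the sets had a Pearson's r of 0.23 across peaks. Among 2585 peaks with at least 100 counts in each set, r was 0.45, with 258 peaks called higher, 56 called lower and 24 opposite. With the cluster left out, 1315 peaks (5.97%) were called higher and 1529 (6.94%) lower. Of these, 781 were among the 1539 higher peaks above (50.7% of the first list and 59.4% of the second) and 1053 were among the 1932 lower peaks (54.5% and 68.9%).

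The called peaks come from the same cells and counts as the class shares above, so their makeup is a description and no separate support. The CTCF consensus lay in 17.6% of the higher peaks, 2.07% of the lower peaks and 9.04% of all tested peaks. Of 2109 tested peaks with the consensus, 271 were called higher (12.8%), 40 lower (1.90%) and 129 opposite. Without the cluster, 215 of 1870 were called higher (11.5%) and 40 lower (2.14%). The PU.1 word lay in 10.1% of the higher and 19.8% of the lower peaks, and the RUNX word in 23.0% and 37.1%. Of all tested peaks, 16.6% held the PU.1 word and 30.9% the RUNX word. The median distance to the nearest protein-coding start was 15076 bp for the higher and 27765.5 bp for the lower peaks, against 20351 bp for all tested peaks. With the cluster left out it was 18670 and 22911 bp, a smaller gap. Of the higher and lower peaks, 45.9% and 56.9% lay inside protein-coding genes.

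The peaks with the largest smaller ratio of both sets are described with their sequence, which gives their CpG content. They were chosen by their ratios among peaks with at least 100 counts in each set, so the ratios are a description. The central 300 bp of the 3 leading higher peaks and of 2 of the 4 leading lower peaks are printed from RefSeq GRCm38.p6, plus strand, in lower case, with CpG dinucleotides and the words searched in capitals.
Tcf12 peak (higher in promoter-rich cells), chr9:72133127-72133426: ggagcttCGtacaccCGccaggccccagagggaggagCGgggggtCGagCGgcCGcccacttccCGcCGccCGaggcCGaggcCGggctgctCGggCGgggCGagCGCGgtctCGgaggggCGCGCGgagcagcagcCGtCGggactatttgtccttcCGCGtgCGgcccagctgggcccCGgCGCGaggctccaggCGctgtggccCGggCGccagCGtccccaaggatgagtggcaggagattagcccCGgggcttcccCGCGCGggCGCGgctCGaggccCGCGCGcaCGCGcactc
Tnrc6b peak (higher in promoter-rich cells), chr15:80799263-80799562: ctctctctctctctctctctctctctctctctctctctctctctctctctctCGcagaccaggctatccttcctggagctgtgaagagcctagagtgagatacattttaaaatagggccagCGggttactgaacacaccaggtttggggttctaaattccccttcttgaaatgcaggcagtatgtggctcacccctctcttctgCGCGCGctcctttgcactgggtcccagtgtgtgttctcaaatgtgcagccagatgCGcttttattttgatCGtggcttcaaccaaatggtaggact
Mmel1 peak (higher in promoter-rich cells), chr4:154877895-154878194: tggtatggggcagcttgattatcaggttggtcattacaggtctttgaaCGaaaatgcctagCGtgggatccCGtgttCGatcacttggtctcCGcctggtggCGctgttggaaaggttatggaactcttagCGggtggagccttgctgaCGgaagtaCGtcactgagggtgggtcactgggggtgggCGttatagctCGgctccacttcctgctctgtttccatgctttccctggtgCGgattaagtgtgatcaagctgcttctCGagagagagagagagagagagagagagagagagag
Tcf7l1 peak (lower in promoter-rich cells), chr6:72810331-72810630: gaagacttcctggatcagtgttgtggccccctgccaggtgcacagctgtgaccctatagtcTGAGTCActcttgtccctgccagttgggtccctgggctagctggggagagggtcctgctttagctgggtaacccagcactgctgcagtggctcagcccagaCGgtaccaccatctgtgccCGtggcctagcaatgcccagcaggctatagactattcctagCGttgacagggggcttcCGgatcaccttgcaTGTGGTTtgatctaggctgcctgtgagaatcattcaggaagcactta
Pde6b peak (lower in promoter-rich cells), chr5:108405656-108405955: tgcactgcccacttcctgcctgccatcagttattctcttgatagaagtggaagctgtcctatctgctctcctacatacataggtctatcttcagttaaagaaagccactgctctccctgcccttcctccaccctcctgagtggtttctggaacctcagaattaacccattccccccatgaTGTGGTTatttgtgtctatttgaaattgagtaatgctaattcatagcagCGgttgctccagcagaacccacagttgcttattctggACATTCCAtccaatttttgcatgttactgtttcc

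The Tcf12 window held 44 CpG and was 78.0% G or C, and the Mmel1 and Tnrc6b windows held 13 and 7. The windows of the lower peaks held 4 CpG (Tcf7l1) and 1 (Pde6b). Over whole peaks, the median was 3.16 CpG per 100 bp for the 8 higher and 0.739 for the 8 lower peaks. The contrast did not hold for every peak. The higher Slfn2 peak had 0.523, and the higher Tnrc6b peak had 1.61, near the 1.37 of the lower Tcf7l1 peak. Among the searched words, the lower windows printed here held the AP-1 word TGAGTCA and the RUNX word TGTGGTT (Tcf7l1), and the RUNX word and the TEAD word ACATTCCA (Pde6b), and the 3 higher windows none. Over the whole peak, however, the higher peaks held words too, namely the PU.1 word (Tcf12), the AP-1 word (Tnrc6b) and the GATA word (Mmel1), and the lower peaks near Adcy9 and Car8 held none. In the central 300 bp of all non-promoter peaks, the AP-1 word was found in 11.5%, the RUNX word in 11.3% and the TEAD word in 1.16%, and any of the 9 words in 36.9%.

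The peak 20723 bp from the start of Tcf12, which encodes an E-protein transcription factor, spans chr9:72132594-72133960, between protein-coding genes. In set 1 it had 96 counts in 34 promoter-rich cells and 32 counts in 13 promoter-poor cells, and in set 2 it had 82 counts in 28 cells and 26 counts in 11 cells. The log2 ratios were 1.51 (0.95 to 2.17) and 1.95 (1.34 to 2.69), and 1.501 and 1.597 without the cluster. The Tnrc6b peak (chr15:80797701-80801124) lies within that gene, which encodes a scaffold of microRNA silencing, and overlaps the start of another annotated transcript of it. It had 211 against 68 counts in set 1 and 146 against 73 in set 2, with log2 ratios of 1.58 and 1.32. Without the cluster, the ratio of set 2 was 0.75. The Mmel1 peak (chr4:154877565-154878525), inside a gene for a membrane metallopeptidase, had 84 against 32 and 79 against 32 counts, with log2 ratios of 1.32 and 1.61.

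The other higher peaks were near Galr3, Chd7, Slfn2, Gm10428 and Sirt4. Chd7 encodes a chromatin remodeler, and the peak 41612 bp from its start (chr4:8646923-8648858) had 179 against 67 counts in set 1 and 176 against 92 in set 2. Over the 8 peaks the log2 ratios spanned 1.19 to 1.58 for set 1 and 1.19 to 1.95 for set 2.

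Among the 8 lower peaks were those near Epb41l4a, Tcf7l1, Pde6b, Adcy9, Sipa1l1, Mrpl15 and Car8. The peak 20790 bp from Tcf7l1, a transcription factor of the Wnt pathway, spans chr6:72810044-72810918. It had 36 counts in 15 promoter-rich cells and 83 in 34 promoter-poor cells of set 1, and 25 counts in 11 and 86 in 35 cells of set 2 (log2 ratios -1.22 and -1.42). The Pde6b peak (chr5:108405136-108406476) had 57 against 120 and 24 against 79 counts (-1.10 and -1.35). The log2 ratios of the 8 lower peaks spanned -1.69 to -0.97 for set 1 and -1.80 to -1.25 for set 2. All 16 peaks remained past 1.5-fold in both sets without the cluster and in groups matched for depth. With each peak counted once per cell and the cells scored again, the set 1 ratios were above 0 for 2 of the lower peaks, among them the Adcy9 peak at 0.0946.

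Summed over gene loci (the non-promoter peaks of a gene body and 5000 bp upstream), 8156 loci had at least 20 counts in each set. Of these, 339 were past 1.5-fold higher in promoter-rich cells in both sets (4.16%) and 420 lower (5.15%), while 346 went opposite ways. Without the cluster, 258 of 7931 (3.25%) were higher and 397 (5.01%) lower, of which 164 and 243 were on the first lists. Pearson's r between the sets was 0.41 over the 1475 loci with at least 200 counts in each, and 0.29 without the cluster.

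The 12 higher and 12 lower loci named here had the largest smaller ratio of both sets among 1443 loci with at least 2 peaks and 200 counts. Sirt4, a mitochondrial sirtuin, had 235 counts in promoter-rich and 100 in promoter-poor cells of set 1 and 191 and 86 in set 2, log2 ratios of 1.18 (0.85 to 1.55) and 1.48 (1.11 to 1.87). Nearly all of its counts came from 1 peak, the Sirt4 peak named above. That peak lies outside protein-coding genes, 3469 bp from the start of Sirt4, and overlaps the start of another annotated transcript, Gm24265. Tnrc6b had 325 against 141 and 236 against 157 counts (1.16 and 0.92). Of these, the Tnrc6b peak described above held 211 against 68 and 146 against 73. Gatad2a, a subunit of the NuRD complex, had 217 against 108 and 236 against 167 (0.96 and 0.83). Ctc1, a telomere maintenance protein, had 189 against 104 and 178 against 130 (0.82 and 0.78). Bcat2, a mitochondrial aminotransferase of branched-chain amino acids, had 243 against 137 and 171 against 113 (0.78 and 0.93). Mok, C87436, Mmel1, Crybg2, Tmem143 and Grcc10 followed, with log2 ratios of 0.74 to 0.85 in set 1. The Mmel1 locus includes the Mmel1 peak described above.

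Cdk8, a kinase of the Mediator complex, did not keep its direction in set 2. Its log2 ratios were 0.85 and 0.87, but without the cluster that of set 2 was -0.24, and in groups matched for depth it was -0.42. The other 11 higher loci kept their direction in both sets without the cluster and with matched depth. Without the cluster, 7 of the 12 stayed past 1.5-fold in both sets. Their ratios of set 2 without the cluster ran up to 1.01. Promoters of these loci did not follow in a common direction, with log2 ratios per 1000000 promoter counts of 0.01 and -0.09 for Sirt4 and 0.81 and 0.63 for Bcat2.

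The leading lower loci had 6 to 18 non-promoter peaks each and the higher loci 2 to 11. Col27a1, a fibrillar collagen, had 69 counts in promoter-rich and 168 in promoter-poor cells of set 1 and 58 and 152 in set 2, log2 ratios of -1.31 (-1.749 to -0.91) and -1.04 (-1.52 to -0.61). Fbn1, which encodes fibrillin, had -0.74 and -0.68, Emilin2, a matrix glycoprotein, -0.74 and -0.95, and Ptprm, a receptor phosphatase of cell contacts, -0.68 and -0.68. Hk2, the hexokinase of glucose uptake into glycolysis, had 97 against 177 and 70 against 162 counts (-0.90 and -0.87). Nrg1, a ligand of ERBB receptors, had -0.85 and -0.86, and Mthfd1l, a mitochondrial enzyme of folate metabolism, -0.69 and -1.24. Epb41l4a, Ccnjl, Dclk1, Dop1b and Kazn completed the 12. The Epb41l4a locus includes the lower peak named after it above. All 12 stayed below 0 in both sets without the cluster, where 5 remained past 1.5-fold in both, and the ratios of set 2 then ran from -0.82 to -0.11. For Col27a1 the ratio of set 2 was -0.27 without the cluster and for Fbn1 it was -0.11.

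**Figure D5:**
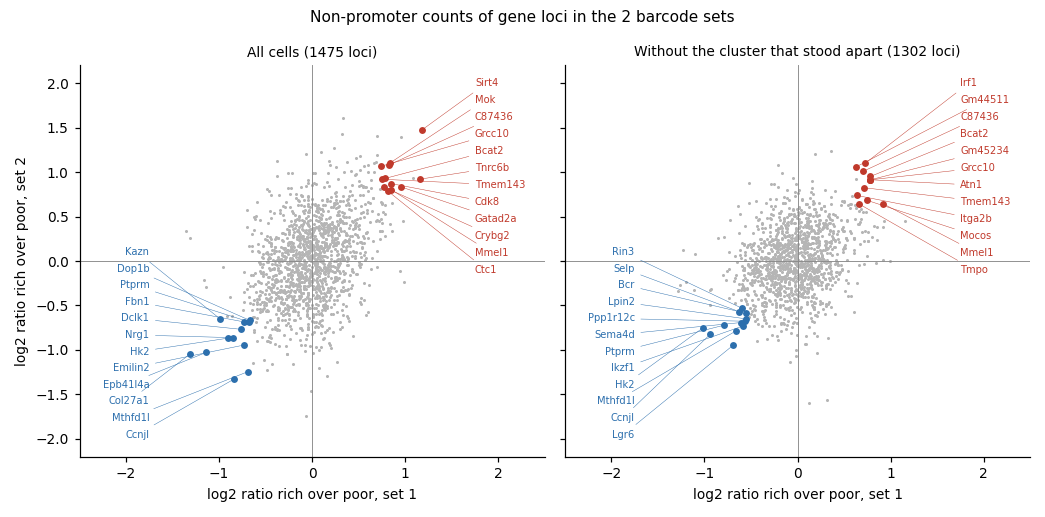
Log2 ratio of non-promoter counts of gene loci, promoter-rich over promoter-poor cells, in set 1 (horizontal axis) against set 2 (vertical axis), for all cells (1475 loci with at least 200 counts in each set) and without the cluster that stood apart (1302 loci). Named in each panel are its 12 loci per direction with the largest smaller ratio, in red (higher) and blue (lower), and the SD of set 2 is 0.46 with and 0.37 without the cluster.

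Of 187 genes on 14 fixed lists, 95 loci could be tested, of which 3 were past 1.5-fold higher in both sets (Itga2b, Nf2 and Irf1), 1 was lower (Csf1r) and 4 went opposite ways. Of all tested loci, 4.16% were higher and 5.15% lower. Itga2b, the CD41 integrin of megakaryocytes and aged stem cells, had 278 against 178 counts in set 1 and 170 against 135 in set 2, log2 ratios of 0.60 (0.33 to 0.88) and 0.66 (0.33 to 1.01), and 0.64 and 0.74 without the cluster. In groups matched for depth its ratios were 0.38 and 0.44, below 1.5-fold. Irf1, a transcription factor of the interferon response, had 276 against 165 and 208 against 114 counts (0.70 and 1.196), and 0.73 and 1.10 without the cluster and 0.87 and 1.02 with matched depth. Nf2, an upstream member of the Hippo pathway, rested on 22 against 10 and 19 against 13 counts, and both intervals included 0 (-0.04 to 2.34 and -0.21 to 2.02). With matched depth its ratio of set 1 was 0.29. Csf1r, the receptor of macrophage colony-stimulating factor, had 130 against 196 and 75 against 163 counts (-0.63 and -0.78), but -0.37 in set 2 without the cluster.

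The LT-HSC list had a median log2 ratio of -0.09 over 13 tested loci in set 1 and -0.39 in set 2, where the intervals of 7 loci lay below 0 and that of 1 above. Erg, a transcription factor of stem cells, had 490 against 473 counts in set 1 (0.01) and 252 against 491 in set 2 (-0.62). Meis1 had 0.21 and -0.52, and Hlf 0.10 and -0.96. With the cluster left out, the median of set 2 was -0.14, and the ratios of Erg, Meis1 and Hlf in set 2 were -0.31, -0.08 and -0.34. Kit, the stem cell factor receptor, was the 1 LT-HSC locus past 1.5-fold lower in both sets without the cluster (-0.66 and -0.83). Over all tested loci the medians were -0.01 and -0.03.

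The Hippo and TEAD list, which holds Wwtr1 (the gene of TAZ), had 15 tested loci with medians of -0.12 and -0.29, and 0.14 in set 2 without the cluster. Wwtr1 itself had 195 against 239 counts in set 1 (-0.33, -0.61 to -0.05) and 91 against 134 in set 2 (-0.22, -0.62 to 0.17), and 0.37 in set 2 without the cluster. The aged HSC list had medians of -0.16 and -0.00062 over 15 loci, and of -0.11 and 0.25 without the cluster. None of its loci was past 1.5-fold in both sets. Vwf, the von Willebrand factor gene, had log2 ratios of 0.46 (0.21 to 0.71) and 0.38 (0.11 to 0.65), and 0.44 and 0.34 without the cluster. Selp, the adhesion receptor P-selectin, had -0.56 (-0.89 to -0.24) and -0.34 (-0.66 to -0.02), and -0.63 and -0.57 without the cluster. The cell cycle list had medians of 0.33 and 0.43 over 7 loci, and 0.36 and 0.04 without the cluster. The immediate early list, genes induced within minutes of a stimulus or of cell handling, had medians of -0.01 and -0.20 over 7 loci and none past 1.5-fold in both sets, although 1 was lower in both without the cluster. The housekeeping list had 0.44 and 0.13 over 6 loci.

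Among lists of other cell types, the medians of set 1 and set 2 were -0.14 and -0.22 for multipotent progenitors (7 loci), 0.06 and -0.34 for megakaryocytes (7), 0.30 and -0.78 for myeloid cells (3), -0.31 and 0.10 for B cells (4), 0.15 and 0.46 for T and NK cells (4) and 0.14 and -0.70 for endothelial and stromal cells (6). The interferon list had -0.08 and -0.0042 (6), and of the erythroid list 1 locus could be tested. Without the cluster, the set 2 medians of the megakaryocyte and the T and NK cell lists were 0.25 and 0.07. At promoters, ribosomal protein genes held 0.77% against 0.69% of promoter counts in set 1 and 0.75% against 0.71% in set 2. The log2 ratio of set 2 was 0.09, and without the cluster it was 0.03 with an interval of -0.01 to 0.08. Histone genes held 0.23% against 0.24% and 0.25% against 0.28%.

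Cells of like score also resembled each other away from promoters. Among the 30 nearest neighbors of a promoter-rich cell, found on non-promoter peaks after thinning to equal non-promoter counts, 35.1% in set 1 and 45.1% in set 2 were promoter-rich as well, whereas this group held 19.9% and 20.0% of the cells. Promoter-poor cells had 28.8% and 28.2% of neighbors in their own group. Without the cluster, the shares were 33.9% and 33.9% for promoter-rich and 27.3% and 25.4% for promoter-poor cells. A promoter-rich cell had 11.7% of its neighbors in the promoter-poor group in set 1 and 9.70% in set 2.

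A repeat peak also differed. The peak with the most counts of the table (chr17:39842796-39849035) covers a ribosomal RNA repeat. It held 0.732% of the non-promoter counts of promoter-rich and 0.419% of those of promoter-poor cells in set 1, and 0.626% and 0.431% in set 2. The median cell had 0.208% of its counts in it among promoter-rich and 0.110% among promoter-poor cells of set 1, against 0.0880% and 0.102% in set 2. Its part in the results was not tested beyond the calls, which are given without it below.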

How the data were processed

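Single-cell ATAC-seq was measured in pooled LT-HSCs, and the table of the CLCA3A1high and CLCA3A1low samples was used. The authors produced the deposited counts, whole numbers of cut sites per peak and cell barcode, with Cell Ranger ATAC 1.2.0 on GRCm38 (mm10), per the submitters' processing notes. No normalization of the deposited counts is stated, and the depth of the 1309 cells kept ran from 4899, the 10th percentile, to 136173. Since 88.7% of nonzero counts were even, cut sites come in pairs, and all intervals (Clopper-Pearson for shares and the binomial ratio for folds, 95%, and order statistics for medians) cover counting error only and are too narrow. With no replicates no p-value is given.

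The members and lists were chosen with earlier results of these data known. Promoter scores, groups, thinning without replacement, ratios and words were computed with Python 3.11.15, NumPy 2.4.6, SciPy 1.17.1 and pandas 2.3.3. Clusters came from 20 components of latent semantic indexing of non-promoter peaks (scikit-learn 1.9.0, leidenalg 0.10.2, resolution 0.5), and no doublet caller was run. Named peaks (8 per direction, at least 100 counts in each set) and loci (12 per direction, at least 2 peaks and 200 counts in each set) had the same sign in both sets and the largest smaller ratio. Loci that overlap share peaks. Genes of 14 fixed lists were reported beside these, and a gene on 2 lists counts in both. The scripts were tested on simulated data. The alternatives were other promoter windows and starts, each peak counted once per cell, thinned scores, no cells over 3 times the median depth, top and bottom 10%, depth-matched groups, other scalings, minimums, pseudocounts and folds. Figures were drawn with matplotlib 3.10.9. Leaving out the cluster or the ribosomal RNA repeat peak, and the count of each peak once per cell for classes and words, were added after seeing the data. A few items of the lists and named peaks are not reported here.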

Additional observations from a re-analysis of the deposited data

Results flagged for a closer look

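Loci of the fixed lists were set aside when they were past 1.5-fold in opposite directions in the barcode sets, with both counting intervals away from 0. The difference between the sets was not tested. Gata2, a transcription factor of stem cells, had a log2 ratio of promoter-rich over promoter-poor cells of 0.89 in set 1 (115 against 60 counts) and -0.62 in set 2 (45 against 88 counts). Without the cluster that stood apart, the values were 0.85 and -0.14. Gp9, a platelet glycoprotein gene, had 0.77 in set 1 (104 against 59 counts) and -1.16 in set 2 (18 against 52 counts), and 0.72 and -0.75 without the cluster. Ppia, the housekeeping gene of cyclophilin A, had 1.07 in set 1 (40 against 18 counts) and -0.82 in set 2 (18 against 41 counts), and 1.01 and -0.97 without the cluster. The ratios of Gp9 and Ppia therefore kept their opposite signs without the cluster, while that of Gata2 in set 2 came near 0.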

How the results depend on the processing

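No paired analysis was possible because the barcode sets are mapped to no sample and the compared groups are cells of the same set. With each peak counted once per cell and the cells scored again, the rich over poor ratio of median depth was 0.516 and 0.545, the difference in peaks at equal depth -558 and -564.5, and the calls 627 peaks higher, 347 lower, 140 loci higher and 204 lower. Under it the set 1 ratios of 2 lower peaks, Adcy9 the second, were 0.18 and 0.0946, that of Fbn1 in set 2 was 0.0785, the PU.1 word gave 0.0783 in set 1 and RUNX 0.043 and 0.0094. Depth-matched groups set the depth ratio of set 1 to 0.998, by construction. Without thinning the difference in peaks was 896 and 306.5. Scaling to all counts gave 442 peaks higher and 3702 lower, and 94 and 1117 loci. A minimum of 50 counts gave 549 and 431 peaks and 153 and 178 loci, and a minimum of 1 count gave 5374 and 8673 peaks and 687 and 902 loci. Past 2-fold there were 308 and 622 peaks and 68 and 107 loci. The top and bottom 10% left 1011 peaks lower, and the window of 5000 bp left 195 loci higher. The Cdk8 locus in set 2 was -0.71 with the top and bottom 10%, -0.42 with matched depth and -0.24 without the cluster. Crybg2 in set 2 was -0.0648 with the wide window, and Hk2 in set 2 was 0.15 with starts of all transcripts. Without the cluster, distance classes of set 2 had log2 ratios of -0.0278 (1 to 5 kb), -0.0061 (5 to 25 kb), 0.0155 (25 to 100 kb) and 0.0136 (over 100 kb), and the first and second 20% of peaks by GC content 0.0667 and 0.0024. Without the ribosomal RNA repeat peak 1597 peaks were higher and 1938 lower. Of 96 alternative values for depth, peaks per cell and calls, 67 stayed within the interval of the value above, or within 1.5 times of a count, and 29 did not, and the causes were not tested beyond what the construction shows. Peaks with few counts limit single calls.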
